A study of Homo sapiens with 9 samples.

Results

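Coding transcripts with an intron in their 3' UTR were followed through knockdown of the RNA helicases UPF1 and DHX34. A transcript was a member when GENCODE release 44 gave it the protein_coding biotype, when its stop codon lay 55 or more bases upstream of the last exon junction, and when its mean over the 9 libraries reached 0.5 TPM, a measure of transcript level normalised for length and library size. This gave 104 transcripts of 89 genes among the 203027 transcripts of the deposited tables. Without the TPM limit 424 transcripts had such a junction, of which 320 lay under it. The comparison set was the 22728 protein_coding transcripts that passed the same TPM limit and had no such junction, 21481 with no junction after the stop codon and 1247 with one under 55 bases from it. A further 4076 expressed protein_coding transcripts without a complete annotated stop codon were left out of both sets. The members were thus chosen by annotation and by their measured mean TPM over all libraries, so the level of the members is a description and carries no test.

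During splicing an exon junction complex (EJC) is left just upstream of each exon junction, and the first translating ribosome removes those within the reading frame. An EJC that remains well downstream of a terminating ribosome can recruit UPF2 and UPF3 and activate UPF1, which commits the transcript to nonsense-mediated decay (NMD). An intron in the 3' UTR therefore places a normal-looking coding transcript in the position of a transcript with a premature termination codon, and DHX34 is known as a helicase that binds UPF1 and promotes its phosphorylation in this pathway.

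The cells were K562, a human erythroleukaemia line from chronic myelogenous leukaemia, whose cell line field in the labels reads K652. SCR cells received a non-targeting siRNA pool and carry the treatment label WT, DHX34 knockdown cells received an siRNA pool against DHX34, and UPF1 knockdown cells received siRNA against UPF1. All 3 groups were transfected, transfected again on day 3 and harvested 4 days after the first transfection. Each group had 3 libraries of poly(A)-selected RNA. The groups are acute knockdowns in 1 tumour line, and RNA of the targeted genes remained in them.

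Library depth ranged from 73478797 to 103625443 estimated counts, of which the members took from 0.0982 to 0.127%. The UPF1 gene fell from 49.2 ± 2.59 TPM (SD, n = 3) in SCR to 23.1 ± 0.169 TPM in UPF1 knockdown, and DHX34 fell from 18.7 ± 0.671 to 9.98 ± 0.925 TPM in DHX34 knockdown. Fitted on normalised counts per gene, the log2 fold changes were -1.31 ± 0.03 (SE) for UPF1 and -1.23 ± 0.05 for DHX34. All 14 erythroid and megakaryocytic marker genes examined reached 1 TPM in every group, with a summed level of 26403 TPM in SCR, 24974 in DHX34 knockdown and 16249 in UPF1 knockdown, most of it globin RNA, and the part of this fall in the results was not tested. The summed level of the 11 markers of other cell types examined was between 74.9 and 79.9 TPM in the 3 groups, nearly all of it EPCAM. KRT5, KRT14 and MS4A1 were at 0 in every library. In the TPM scale the comparison transcripts had a median log2 difference from SCR of 0.17 in UPF1 knockdown and 0.14 in DHX34 knockdown, against -0.07 and -0.02 in normalised counts, so differences between groups are given in normalised CPM (counts scaled to the library total with TMM factors) and TPM is used for levels within a library.

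The sequences that define membership are the stop codon and the donor of the last intron, and they are printed for 9 members whose values are followed through the results. The first 6 had the largest fold change in either knockdown among the members called at an adjusted p of 0.005, the 5 with the smallest p in DHX34 knockdown and the 5 most abundant, and LSM7-203, NXF1-211 and PICALM-224 were added after their values were seen. The 27 coding bases before the stop codon are in lower case and the stop codon is in capitals, as read 5' to 3' from the GENCODE 44 transcript.
TUG1-217: ctttgccttttcctccttatgccgcctTAG
MOCS2-203: gccgttatcccccccattagtggaggaTAG
ADH5-213: cacagtgtggagaatgcaaattttgtcTAA
DGUOK-208: cctgaaagtacagctggagcccttcccTGA
MARVELD1-201: cgctgccagggcaagcaggaggtggcgTGA
MTLN-203: gcgacgcagaagaagctggacctggccTGA
LSM7-203: ttccagggaggccgcgaagtggaatccTGA
NXF1-211: cctggggaccttcaccccctgggaggcTGA
PICALM-224: catttattaggcggtatagtagatattTAA
For the same transcripts the last 10 exon bases before the final junction and the first bases of the intron follow, with the GT of the donor in capitals, as read from hg38 on the strand of the gene.
TUG1-217: atacatcaagGTagaacctc
MOCS2-203: atggaaaaagGTaagttaag
ADH5-213: ctggaaagagGTaggctttc
DGUOK-208: catgagagagGTgggaagga
MARVELD1-201: ggcctgtaagGTaagacgct
MTLN-203: tggagtgttgGTgagcagta
LSM7-203: tacatgcgagGTgagtgggg
NXF1-211: tcatctcaagGTaaggtctg
PICALM-224: aggagcacagGTattacaca
All 9 donors began with GT. The stop codon of TUG1-217 was at chr22:30969816-30969818 on the plus strand, and its last 3' UTR intron, 1582 bases long, was at chr22:30973588-30975169. The stop codon of MOCS2-203 was at chr5:53107095-53107097 on the minus strand with its last intron at chr5:53098668-53100410. For LSM7-203, also on the minus strand, the stop codon was at chr19:2324182-2324184 and the intron at chr19:2321823-2324124. The last intron of PICALM-224, at chr11:85959061-85974707, was the longest of the 9 with 15647 bases, and that of NXF1-211, at chr11:62792515-62792640, was the shortest with 126 bases.

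The members differed from the comparison set in the length of the coding sequence. The rule set no limit on this length, but it selected by the position of the stop codon. The lengths of the coding sequence and of the 3' UTR are therefore not independent of it. Their coding sequence had a median of 544.5 bases against 1107, and 30 members (28.8%) had one under 300 bases against 6.84% of the comparison transcripts. Their 3' UTR had a median of 965 bases against 639, while the median number of exons was 8 in both sets. Only 14 members (13.5%) were the MANE Select transcript of their gene, the agreed reference isoform, against 40.7% of the comparison set. In 52 members the stop codon lay upstream of the MANE stop, in 22 it was the same stop, in 3 it lay downstream, and 13 had no MANE transcript to set beside. The stop codon was TGA in 59 members (56.7%), TAG in 25 and TAA in 20, and TGA made up 50.7% in the comparison set. The GENCODE tag NMD_exception, a label of the annotation and not a measure of decay, was carried by 42 members (40.4%) and 6 comparison transcripts (0.0264%).

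The distance from the stop codon to the last junction had a median of 316 bases and ranged from 56 to 4873. There was 1 junction beyond 55 bases in 52 members, 2 to 4 in 31 members and 5 or more in 21. VPS52-218, a transcript of a subunit of the GARP tethering complex, had the most with 18, followed by PICALM-224, from the gene of a clathrin assembly protein, and ZBED6-201, which encodes a zinc finger transcription factor, with 16 each. The junctions came from 318 different introns of median length 1139.5 bases, and 312 of these introns (98.1%) ran from GT to AG. The members nearest to the distance limit were PACRGL-218 at 56 bases and LSM7-203 and PTOV1-212 at 57, and just outside it lay DELE1-205 at 50, DUSP28-201 at 52 and PDK1-203 at 54. Nearest to the TPM limit were RABEPK-206 and DUSP16-201 at 0.531 TPM and COPS5-203 at 0.541, and just outside it C11orf80-211 at 0.426, ENST00000642087 at 0.437 and SGMS1-201 at 0.452. In all, 11 genes had more than 1 member, with 4 for PTOV1 and 3 each for NAA60 and TXNRD2, so members of 1 gene share most of their sequence and their reads.

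**Figure D1:**
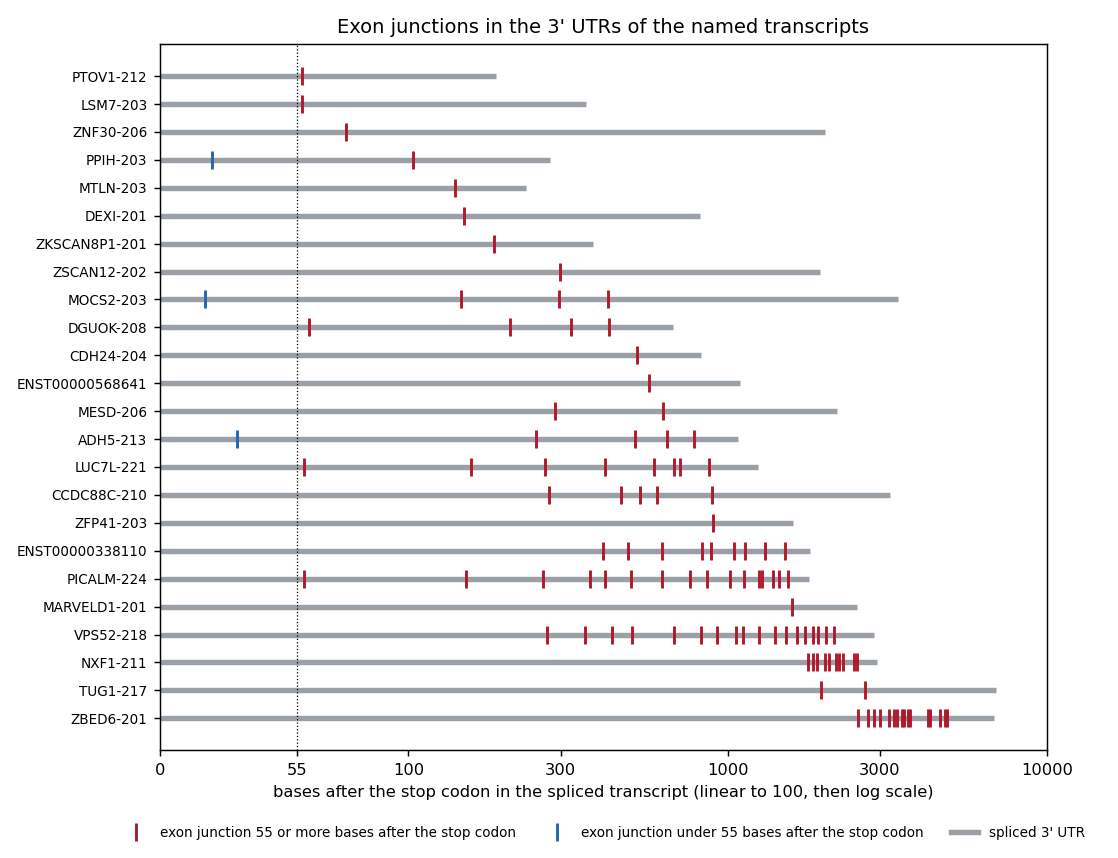
Spliced 3' UTRs of the 24 named members drawn from the stop codon (x axis in bases, linear up to 100 and logarithmic beyond), with red marks for exon junctions 55 or more bases after the stop codon and blue marks for nearer ones. LSM7-203 and PTOV1-212 have their only junction 57 bases after the stop codon, whereas the 10 junctions of NXF1-211 lie between 1783 and 2551 bases after it.

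The tables were quantified on an older Ensembl annotation, and 84 of the 104 members (80.8%) had the same length there as in GENCODE 44. Among the 20 others the lengths differed by over 100 bases in 10, so that the quantified model may not hold the same 3' UTR. The quantified PPIH-203 had 665 bases against 923 in GENCODE 44, and MOCS2-203 had 1337 against 3705. TUG1-217 differed by 5 bases, and DGUOK-208, LSM7-203, NXF1-211, PICALM-224 and ADH5-213 did not differ.

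The members were on the whole weakly expressed. Their median mean level was 1.61 TPM against 4.15 TPM in the comparison set, 79 reached 1 TPM and 16 reached 10 TPM. The 5 most abundant were LSM7-203 with 94.7 TPM, MTLN-203 with 62.7, PTOV1-212 with 60.6, ADH5-213 with 59.1 and DGUOK-208 with 44.6. In 15 members at least 1 library was at 0, and PPP4C-214 was listed at 0 in all but 1 SCR library. In 10 members the SCR mean was under 0.5 TPM, so they passed the limit through the knockdown libraries. The members held 0.0913, 0.0912 and 0.0877% of all protein_coding TPM in the SCR libraries, 0.0888, 0.0889 and 0.0899% in the DHX34 knockdown libraries, and 0.113, 0.116 and 0.112% in the UPF1 knockdown libraries. The UPF1 knockdown libraries lay above all 6 others, while the DHX34 and SCR libraries overlapped. Without the 5 most abundant members the share was 0.0514 ± 0.00127% (SD, n = 3) in SCR, 0.0552 ± 0.000685% in DHX34 knockdown and 0.0670 ± 0.000576% in UPF1 knockdown. These shares are in TPM, in which the comparison transcripts also shifted up. In DHX34 knockdown the median log2 difference in TPM was 0.14 for members and 0.14 for comparison transcripts. In UPF1 knockdown it was 0.49 for members and 0.17 for comparison transcripts. A difference in share between groups thus holds part of that shift.

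To ask whether members depended on UPF1, UPF1 knockdown was compared with SCR in a fit over all transcripts with edgeR's quasi-likelihood test, in which 100 of the 104 members passed the filter on low counts. Most members were higher in the knockdown, 72 of 100, with a median log2 fold change of 0.35. The comparison set had a median of -0.07 (9406 of 22504 higher, 41.8%) and all 63657 transcripts tested had a median of 0.06 (54.4% higher). The normalised counts of the groups did not overlap for 39 of the 100 members that were higher (17.4% of all transcripts tested) and for 10 that were lower (14.3% of all tested). Among the 91 members tested whose SCR mean was at least 0.5 TPM, which leaves out those that entered through the knockdown libraries, 63 were higher and the median was 0.24. In bulk RNA, fewer cells that express a transcript and less of it per cell cannot be told apart.

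Few single members passed the strict limit of an adjusted p of 0.005. Only 1 member rose (0.949% of all transcripts tested did), TUG1-217, and 1 fell (1.59% of all tested), MOCS2-203, so these counts were near the background. At an adjusted p of 0.05, 16 members were higher (4.53% of all tested) and 5 were lower (5.73% of all tested), the first a larger share than the background and the second near it. Calls depended on the model: at 0.005, DESeq2 called 20 higher and 6 lower (5.94 and 7.91% of all transcripts tested by it) and limma on log2 TPM 6 higher and 0 lower (1.67 and 0.206%). At 0.05 DESeq2 called 32 and 9 (9.39 and 11.1%) and limma 27 and 1 (9.58 and 1.25%). The lower members were thus at or under the background by DESeq2. Of the members with an SCR mean of at least 0.5 TPM, edgeR had 14 higher and 5 lower at 0.05. Among members with the same length in both annotations, 10 were higher and 1 was lower at 0.05. Of the 21 members past 0.05, 10 passed it in all 6 fits without 1 library (TUG1-217, MOCS2-203, ADH5-213, DGUOK-208, NXF1-211, PICALM-224, NSUN4-207, PPIH-203, CCDC88C-210 and ZSCAN12-202), DEXI-201 and ENST00000370651 in 5, CDH24-204 in 0 and the other 8 in 1.

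**Figure D2:**
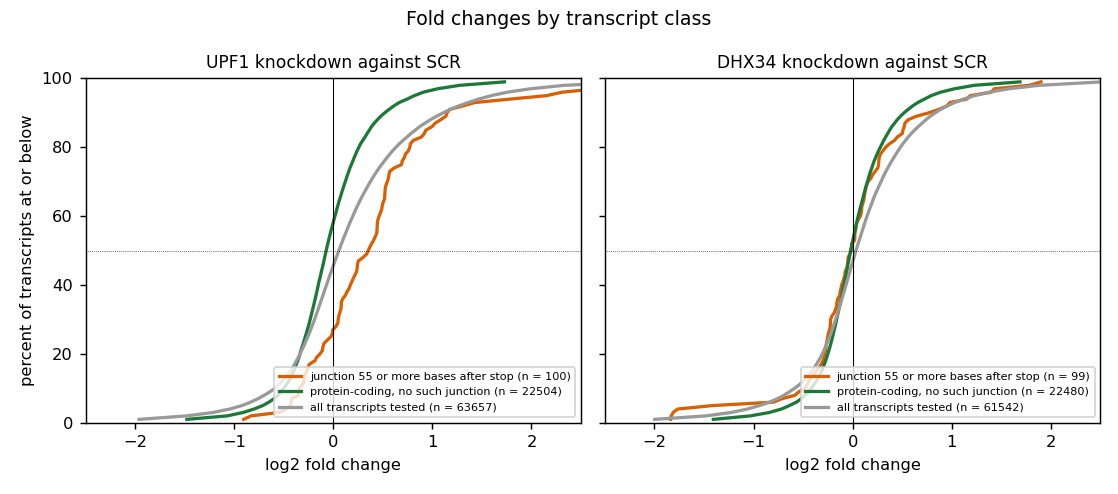
Cumulative share of transcripts (y axis, percent) at or below each log2 fold change (x axis) for members (orange), protein-coding transcripts without such a junction (green) and all transcripts tested (grey). In UPF1 knockdown the members lie to the right, with medians of 0.35, -0.07 and 0.06, and in DHX34 knockdown the members and the comparison set run together, both with a median of -0.02.

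TUG1-217 comes from TUG1, best known as a long noncoding RNA and here annotated with a short reading frame of 462 bases, and its 2 junctions lie 1961 and 2694 bases after the stop codon. It had 62.9, 69.2 and 71.0 normalised CPM in SCR, 80.7, 81.3 and 80.5 in DHX34 knockdown, and 94.1, 98.2 and 100.3 in UPF1 knockdown. The 3 groups did not overlap. It rose by 0.52 ± 0.05 (log2, SE) in UPF1 knockdown (edgeR adjusted p = 0.00281), and this passed 0.05 but not 0.005 when any 1 of the 6 libraries was left out. The whole TUG1 gene rose by 0.38 (edgeR adjusted p = 3.58e-06).

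MOCS2-203 comes from MOCS2, whose mRNA is bicistronic and encodes both subunits of molybdopterin synthase. The stop codon counted here is that of the first reading frame. It made up 91.6 ± 0.444% of the TPM of its gene in SCR (n = 3). Its level was 48.3, 45.3 and 51.4 normalised CPM in SCR, 36.6, 37.1 and 34.5 in DHX34 knockdown, and 36.0, 36.4 and 36.0 in UPF1 knockdown. Both knockdowns lay below every SCR library and overlapped each other. The fall in UPF1 knockdown was -0.42 ± 0.05 (log2, SE; edgeR adjusted p = 0.0046), which passed 0.05 but not 0.005 with any 1 library left out, and the whole gene fell by 0.35 (edgeR adjusted p = 3.43e-05).

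Among the members past 0.05 and higher in UPF1 knockdown, the largest differences were in transcripts of low level. This looser limit was adopted for naming after the values at 0.005 had been seen. NSUN4-207 (a mitochondrial rRNA methyltransferase gene) was higher by 2.29 ± 0.31 (adjusted p = 0.00718) and CLDN15-208 (a claudin of tight junctions) by 2.14 ± 0.43 (adjusted p = 0.0297), both at under 1 TPM on average and under 0.5 TPM in SCR, so that they met the TPM limit only through knockdown libraries. NSUN4-207 had 0.494, 0.312 and 0.637 normalised CPM in SCR, 0.180, 0.463 and 0.627 in DHX34 knockdown, and 2.47, 2.45 and 2.19 in UPF1 knockdown. The UPF1 knockdown libraries stood apart from the 6 others, which overlapped.

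PPIH-203, from the gene of a cyclophilin of the spliceosomal tri-snRNP, was higher by 1.76 ± 0.26 (edgeR adjusted p = 0.00975). Its normalised CPM were 0.861, 0.678 and 0.521 in SCR, 0.355, 0.676 and 0.954 in DHX34 knockdown, and 2.47, 2.47 and 2.08 in UPF1 knockdown. Again the UPF1 knockdown libraries alone were high. Its annotated stop codon is that of the MANE transcript, with the last junction 103 bases after it in GENCODE 44. Whether the shorter model that was quantified held that junction is not known here.

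LUC7L-221, from a gene for a U1 snRNP-associated splicing factor, has 8 junctions and was higher by 1.30 ± 0.26 (adjusted p = 0.0284). It had 4.48, 2.78 and 2.76 normalised CPM in SCR and 6.75, 10.3 and 7.69 in UPF1 knockdown, while in DHX34 knockdown it was at 0 in 2 libraries and 2.80 in the third. CCDC88C-210 (a Wnt signalling regulator, 5 junctions) was higher by 0.99 ± 0.12 (adjusted p = 0.00581), and its whole gene by 0.80. PICALM-224, with 16 junctions over 1550 bases, had 4.65, 5.80 and 4.61 normalised CPM in SCR, 1.59, 2.24 and 6.39 in DHX34 knockdown, and 9.11, 9.57 and 10.0 in UPF1 knockdown. Its UPF1 knockdown libraries did not overlap the others, and the DHX34 knockdown libraries were spread on both sides of SCR. The difference in UPF1 knockdown was 0.92 ± 0.13 (adjusted p = 0.00763), with a whole-gene change of 0.02.

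MESD-206 (a chaperone of LRP receptors) was higher by 0.92 ± 0.17 (adjusted p = 0.0221) and ENST00000568641, the MANE transcript of a gene without a symbol, by 0.88 ± 0.17 (adjusted p = 0.0272). CDH24-204, the MANE transcript of a cadherin gene, was higher by 0.55 ± 0.11 (adjusted p = 0.0265). NXF1-211, from the gene of the main mRNA export receptor, had 27.7, 23.6 and 27.9 normalised CPM in SCR, 28.2, 27.6 and 28.3 in DHX34 knockdown, and 37.2, 38.1 and 38.6 in UPF1 knockdown. The first 2 groups overlapped and the third did not overlap either, a difference of 0.52 ± 0.07 (adjusted p = 0.00699). ZSCAN12-202 (a zinc finger gene) was higher by 0.49 ± 0.07 (adjusted p = 0.0089).

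Some abundant members were also higher. DGUOK-208, from the gene of mitochondrial deoxyguanosine kinase, had 31.7, 29.6 and 30.3 normalised CPM in SCR, 28.7, 24.7 and 22.2 in DHX34 knockdown, and 39.1, 42.6 and 40.3 in UPF1 knockdown. The order was DHX34 knockdown, SCR and UPF1 knockdown with no overlap, and the UPF1 difference was 0.41 ± 0.05 (adjusted p = 0.00508). LSM7-203, from the gene of a subunit of the Lsm rings that bind U6 snRNA and deadenylated mRNA, had 24.8, 23.3 and 23.8 normalised CPM in SCR, 17.3, 20.4 and 17.4 in DHX34 knockdown and 28.7, 28.9 and 27.7 in UPF1 knockdown. It showed the same order without overlap, with a UPF1 difference of 0.24 ± 0.05 (adjusted p = 0.0225). ENST00000370651, of a gene without a symbol, was higher by 0.37 ± 0.05 (adjusted p = 0.00821).

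The 5 members that were lower at 0.05 were all at or above 5 TPM on average. Besides MOCS2-203 they were ADH5-213, MTLN-203, ENST00000338110 and DEXI-201. ADH5-213, from the gene of the glutathione-dependent formaldehyde dehydrogenase, had 73.2, 64.9 and 64.0 normalised CPM in SCR, 55.8, 51.1 and 53.5 in DHX34 knockdown, and 48.0, 48.4 and 49.7 in UPF1 knockdown. The 3 groups did not overlap, and the UPF1 difference was -0.47 ± 0.06 (adjusted p = 0.00632) although the transcript has 4 junctions up to 787 bases after its stop codon. DEXI-201 differed by -0.31 ± 0.05 (adjusted p = 0.0112) and ENST00000338110 by -0.34 ± 0.07 (adjusted p = 0.0371). MTLN-203, which encodes the mitochondrial micropeptide mitoregulin and is the MANE transcript, had 14.5, 14.1 and 14.6 normalised CPM in SCR, 8.79, 9.37 and 7.97 in DHX34 knockdown and 10.9, 11.9 and 11.3 in UPF1 knockdown. Every knockdown library lay below SCR, with a UPF1 difference of -0.35 ± 0.06 (adjusted p = 0.0203).

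**Figure D3:**
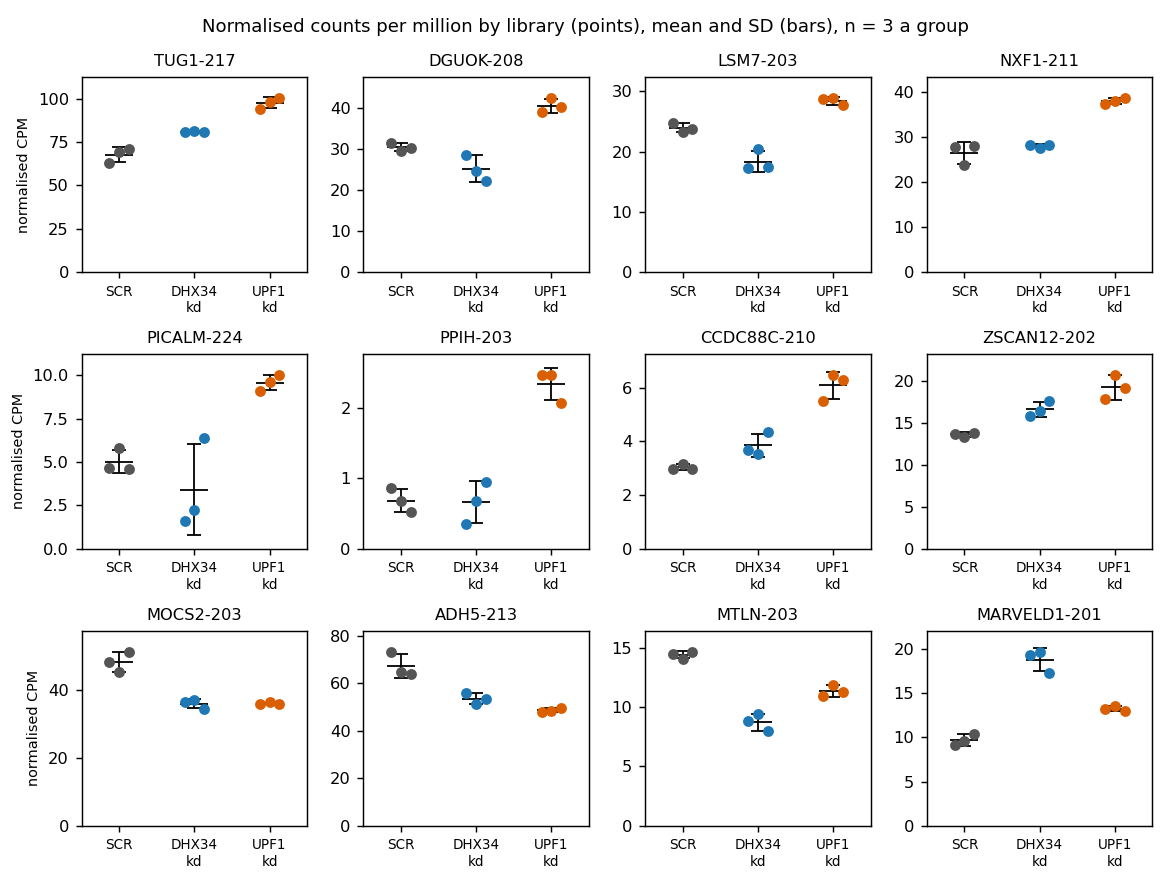
Normalised CPM (y axis, from 0) of 12 members in each library (points; n = 3 a group), with bars for the mean and SD. PPIH-203, NXF1-211 and PICALM-224 are high in the UPF1 knockdown libraries alone, MOCS2-203 and ADH5-213 are low in both knockdowns, and MARVELD1-201 is highest in DHX34 knockdown.

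Other members with large fold changes, or of high level, did not pass the test. TXNRD2-218, from a selenoprotein gene of mitochondrial thioredoxin reduction, had a log2 fold change of 4.04 ± 2.33 (edgeR adjusted p = 0.394), with 20.3, 0 and 12.2 normalised CPM in UPF1 knockdown and 0, 0 and 1.94 in SCR. RABEPK-206 had 0, 0.320 and 0.130 in SCR, 0, 0 and 0.194 in DHX34 knockdown and 2.23, 1.27 and 1.21 in UPF1 knockdown, groups that did not overlap between UPF1 knockdown and the rest (edgeR adjusted p = 0.133 against SCR). RABEPK-206 met the TPM limit only through the UPF1 knockdown libraries, so this separation is no independent result. PTOV1-212, one of 4 members of its gene, had 76.5, 76.6 and 80.6 in SCR and 81.2, 84.8 and 76.6 in UPF1 knockdown, which overlapped. The globin members HBG1-202 and HBG2-203 come from near-identical genes, so the split of reads between them is uncertain.

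Members were then compared with the rest of their genes. A partner was the most abundant protein_coding transcript of the gene without such a junction, and 78 members had a tested partner. Partners had no TPM limit, and some were weak, such as CCZ1B-201 at 0.331 TPM and STRN4-219 at 0.653 TPM on average. The member's fold change in UPF1 knockdown was above the partner's in 57 pairs and below it in 21, with medians of 0.25 and -0.01. These pairs include members that met the TPM limit only through knockdown libraries, such as those of NSUN4, CLDN15 and RABEPK. The pairs were not counted without such members, so the counts and medians are not independent of the rule. Members of the same gene can also share a partner, as those of PTOV1 do, so the pairs are not all separate. For LSM7 the partner LSM7-201 had 96.6, 90.4 and 90.1 normalised CPM in SCR and 68.0, 66.8 and 63.3 in UPF1 knockdown, and it fell by 0.49 (edgeR adjusted p = 0.00259). Member and partner thus moved in opposite directions, and LSM7-203 went from 19.96 ± 0.345 to 28.3 ± 0.519% of the TPM of its gene (SD, n = 3). NXF1-211 went from 19.6 ± 2.25 to 29.8 ± 1.602% of its gene, while NXF1-201 had a log2 fold change of -0.32 (edgeR adjusted p = 0.0273). DGUOK-201 fell by 0.81 (edgeR adjusted p = 0.00168) while DGUOK-208 was higher. ADH5-213 went the other way: its partner ADH5-201 had a log2 fold change of 0.04 and the member's share was 34.9 ± 2.08% in SCR and 30.04 ± 0.460% in UPF1 knockdown.

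The ratio of each member to the other transcripts of its gene was tested with limma for 101 members. At 0.005 no ratio was higher or lower in UPF1 knockdown (backgrounds 0.261 and 0.218%), with 18 higher (11.1% of all ratios tested) and 5 lower (8.76%) at an unadjusted p under 0.05. At 0.05, 6 were higher (2.40% of all ratios tested) and 0 lower (1.85%). These were LSM7-203 (log2 ratio change 0.66 ± 0.06; limma adjusted p = 0.00507), PPIH-203 (2.12 ± 0.21; limma adjusted p = 0.00567), PICALM-224 (0.95 ± 0.17; limma adjusted p = 0.0339), NXF1-211 (0.79 ± 0.15; limma adjusted p = 0.042), NSUN4-207 (1.73 ± 0.34; limma adjusted p = 0.0479) and RABEPK-206 (2.92 ± 0.59; limma adjusted p = 0.0492). NSUN4-207 and RABEPK-206 were under 0.5 TPM in SCR and became members through the UPF1 knockdown libraries, so their higher ratio there is no independent result, and 4 of the 6 remain without them. The median ratio change of the members was 0.13 against -0.06 in the comparison set. TUG1-217 (0.46 ± 0.12; limma adjusted p = 0.098) and CCDC88C-210 (0.35 ± 0.25; limma adjusted p = 0.491) did not pass.

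Whole genes of members changed in both directions. By edgeR on counts summed per gene, 31 of the 89 genes rose at 0.005 (12.4% of all genes tested) and 13 fell (12.9% of all genes tested), the second close to the background. PPIH fell by 0.32 as a gene (edgeR adjusted p = 5.37e-05) although PPIH-203 was higher, and LSM7 fell by 0.22 (edgeR adjusted p = 0.00101).

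**Figure D4:**
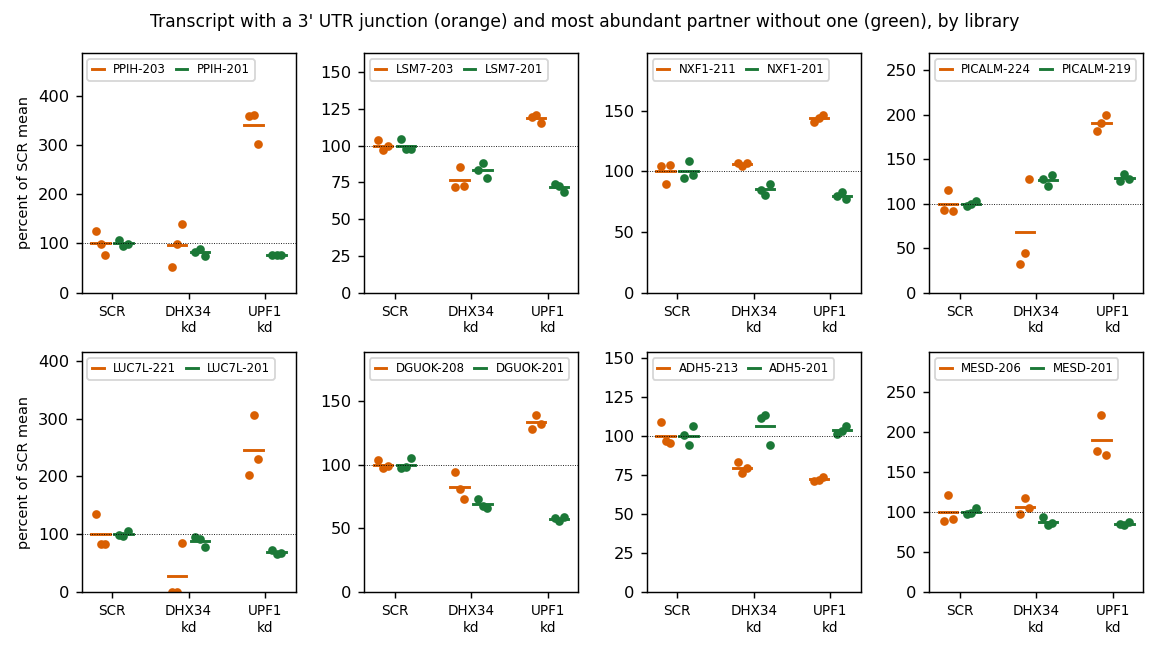
Normalised counts of 8 members (orange) and of the most abundant transcript of the same gene without such a junction (green), as percent of the SCR mean (y axis, from 0), with a point for each library and a line for the group mean. In UPF1 knockdown LSM7-203, NXF1-211 and DGUOK-208 lie above SCR and their partners below it, and ADH5-213 shows the reverse order.

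In DHX34 knockdown the members as a set had the same median as the comparison transcripts. Of 99 members tested 47 were higher (53.2% of all transcripts tested), the median log2 fold change was -0.02 in both sets, and all 61542 transcripts tested had a median of 0.03. edgeR called 0 members higher and 0 lower at 0.005 (backgrounds 0.0341 and 0.0130%), with 11 higher (7.46% of all tested) and 10 lower (7.81%) at an unadjusted p under 0.05. DESeq2 called 5 higher and 4 lower (2.01 and 2.58% of all transcripts tested by it) and limma on log2 TPM 0 higher and 1 lower (0.135 and 0.0613%). At 0.05, 1 was higher (1.30% of all tested) and 2 were lower (1.34% of all tested), near the background. Groups did not overlap for 16 members that were higher (12.4% of all tested) and 11 that were lower (11.7% of all tested). No isoform ratio passed 0.005 (0.0298% higher and 0.0366% lower among all ratios) or 0.05 (0.227 and 0.181%) by limma, with 7 higher (6.18% of all ratios) and 4 lower (5.87%) at an unadjusted p under 0.05, and 2 member genes rose (5.54% of all genes tested) and 4 fell (4.86%) at 0.005.

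The member past 0.05 and higher in DHX34 knockdown was MARVELD1-201, the MANE transcript of a MARVEL-domain membrane protein with a single junction 1587 bases after the stop codon. It had 9.15, 9.60 and 10.4 normalised CPM in SCR, 19.4, 19.7 and 17.3 in DHX34 knockdown, and 13.2, 13.6 and 12.95 in UPF1 knockdown. The 3 groups did not overlap. The difference in DHX34 knockdown was 0.95 ± 0.09 (edgeR adjusted p = 0.0102), it passed 0.05 in 4 of the 6 fits without 1 library, and the whole gene rose by 0.96 (edgeR adjusted p = 1.33e-05). In UPF1 knockdown MARVELD1-201 was higher than in SCR by 0.44 ± 0.07 (edgeR adjusted p = 0.0159).

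MTLN-203 and MOCS2-203 were the members past 0.05 and lower in DHX34 knockdown. MTLN-203 differed by -0.72 ± 0.09 (edgeR adjusted p = 0.0188), which passed 0.05 in 1 of the 6 fits without 1 library, and its gene fell by 0.70 (edgeR adjusted p = 0.000143). MOCS2-203 differed by -0.42 ± 0.06 (edgeR adjusted p = 0.0269), which passed in none of the 6. The next members by unadjusted p were ADH5-213 (-0.33 ± 0.07; edgeR adjusted p = 0.0637) and TUG1-217 (0.26 ± 0.05; edgeR adjusted p = 0.0649). The knockdowns share the SCR libraries, so their values are set side by side here and no overlap of the members they call was computed.

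The difference between the knockdowns was tested directly, without SCR. Of 101 members tested 73 were higher in UPF1 than in DHX34 knockdown (52.4% of all transcripts tested), with a median log2 difference of 0.30. The median was -0.03 in the comparison set and 0.02 over all 65533 transcripts tested. Some members met the TPM limit only through knockdown libraries, so these values are not independent of the rule. Among the 92 members tested whose SCR mean was at least 0.5 TPM, 66 were higher and the median was 0.28. At 0.005 edgeR called 1 higher (0.731% of all tested), NXF1-211 with a difference of 0.46 ± 0.04 (adjusted p = 0.00247; past 0.05 but not 0.005 in all 6 fits without 1 library), and 0 lower (0.324% of all tested). At an unadjusted p under 0.05, 35 were higher (10.5% of all tested) and 4 lower (7.99%). At 0.005 DESeq2 called 15 higher and 2 lower (3.92 and 3.29% of all transcripts tested by it) and limma on log2 TPM 2 and 0 (0.883 and 0.216%). At 0.05, 10 were higher (3.49% of all tested) and 1 was lower (2.22% of all tested). The higher ones included LSM7-203 (0.66 ± 0.08; edgeR adjusted p = 0.00719), TUG1-217 (0.29 ± 0.03; edgeR adjusted p = 0.00672), DGUOK-208 (0.71 ± 0.10; edgeR adjusted p = 0.0123) and MDM4-205, from the gene of a p53 inhibitor (0.88 ± 0.17; edgeR adjusted p = 0.036). The lower one was MARVELD1-201 (-0.48 ± 0.07; edgeR adjusted p = 0.0156). LSM7-203, TUG1-217 and NXF1-211 passed 0.05 in all 6 fits without 1 library, DGUOK-208 in 2, and MDM4-205 and MARVELD1-201 in 1. Of the isoform ratios 2 were higher at 0.05 (1.44% of all ratios tested), those of LSM7-203 and HBG1-202, and 0 were lower (0.928%). As whole genes, 28 of the 89 rose (9.89% of all genes tested) and 8 fell (7.47%) at 0.005.

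Within the members, values in UPF1 knockdown were set out by the features of the 3' UTR. The median log2 fold change was 0.13 for last junctions under 150 bases after the stop codon, 0.26 from 150 to under 500 bases and 0.45 for 500 bases or more, and at 0.05 there were 2 higher and 2 lower of 29 tested, 3 and 1 of 35, and 11 and 2 of 36. Over all transcripts 4.53% were higher and 5.73% lower, so the first 2 classes were near the background. With 1, 2 to 4, and 5 or more junctions the medians were 0.17, 0.41 and 0.49. Comparison transcripts with a junction under 55 bases from the stop codon had a median of -0.07, like those with none. Members with the NMD_exception tag had a median of 0.25 (5 of 42 higher and 4 lower at 0.05) and those without it 0.42 (11 of 58 higher and 1 lower). The stop upstream of the MANE stop gave 0.41 and the MANE stop 0.23. The 14 MANE transcripts had a median of 0.25, with 3 higher and 3 lower at 0.05. These classes overlap and were not tested against each other. They include the members that met the TPM limit through the knockdown libraries, with NSUN4-207 in the class of 500 bases or more. The classes were not computed without those members, so their medians and counts are not independent of the rule.

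Level moved with these values. Members under 5 TPM had a median of 0.46 (comparison transcripts under 5 TPM 0.02), and members of 5 TPM or more a median of 0.05 (comparison -0.13). Members with an SCR mean of at least 0.5 TPM had a median of 0.24 over 91 tested. In DHX34 knockdown the medians by distance were -0.04, -0.13 and 0.09, and members with a coding sequence under 300 bases had a median of -0.23, with 8 of 28 higher. Those of 300 bases or more had a median of 0.04, with 39 of 71 higher. In UPF1 knockdown the shorter class had a median of 0.24, with 16 of 29 higher (54.4% of all tested). The longer class had 0.44, with 56 of 71 higher. At 0.05 the shorter class had 4 higher and 4 lower, and the longer 12 and 1 (4.53 and 5.73% of all tested). The part of level in the differences between classes was not tested. As a reference for the size, transcripts of the nonsense_mediated_decay biotype at 0.5 TPM or more had a median of 0.48 in UPF1 knockdown (2990 of 3951 higher) and -0.03 in DHX34 knockdown.

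**Figure D5:**
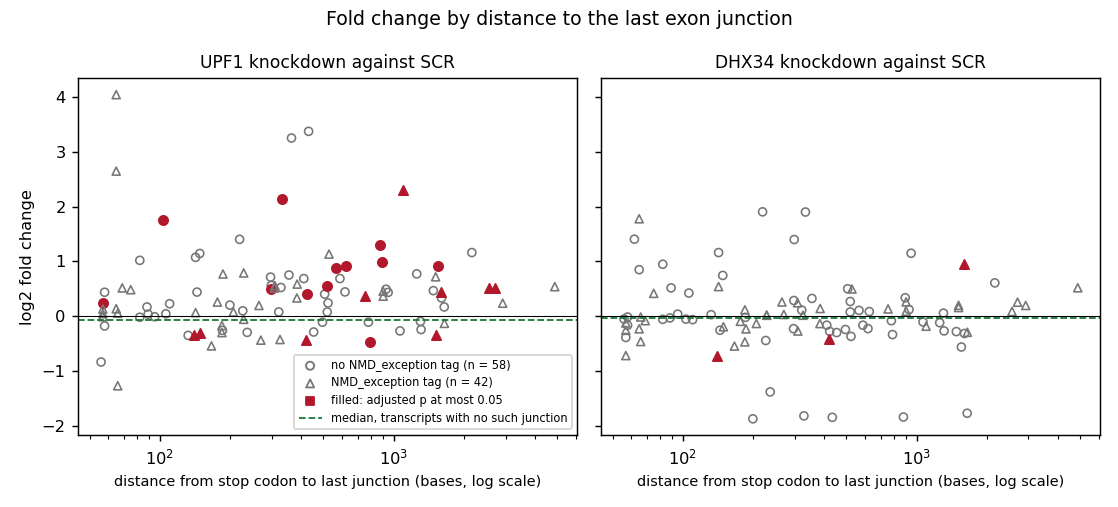
Log2 fold change (y axis) of each member tested against the distance from its stop codon to the last junction (x axis, bases, log scale), with triangles for the NMD_exception tag, filled symbols for an adjusted p of at most 0.05 and a dashed line for the median of transcripts without such a junction. In UPF1 knockdown 21 symbols are filled, 13 of them at 500 bases or more, and in DHX34 knockdown 3 are filled.

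No member belonged to the NMD factor genes (29 listed), the SR, hnRNP and related splicing regulators (59 listed) or the translation and ribosome genes (172 listed). As genes, 10 of the 29 NMD factors rose in UPF1 knockdown and 8 fell, the latter including UPF1 itself, beside backgrounds of 12.4 and 12.9%. Those that rose included SMG1, the kinase of UPF1, by 0.62, the UPF1 partner UPF2 by 0.51, and the phospho-UPF1 adaptor SMG5 by 0.51. In DHX34 knockdown, where 5.54% of all genes rose and 4.86% fell, 1 NMD factor rose (DCP1A, by 0.26) and 3 fell, DHX34 itself among them. Of the splicing regulators 6 of 58 tested rose and 27 fell in UPF1 knockdown, against 0 and 10 in DHX34 knockdown, and of the translation genes 7 of 163 rose and 110 fell, against 3 and 78. Zinc finger genes held 6 members of 5 genes, so the 6 are not all separate. In UPF1 knockdown all 6 had a log2 fold change above 0 (54.4% of all transcripts tested), with a median of 0.47. In DHX34 knockdown 4 of 6 did (53.2% of all transcripts tested), with a median of 0.18. Of the 6 members only ZSCAN12-202 passed 0.05, in UPF1 knockdown. ZNF30-206 had 0.49 ± 0.13 (edgeR adjusted p = 0.0768), ZFP41-203 had 0.46 ± 0.17 (edgeR adjusted p = 0.166) and ZKSCAN8P1-201 had 0.77 ± 0.22 (edgeR adjusted p = 0.0916). Over all zinc finger genes tested, 77 of 496 rose and 20 fell in UPF1 knockdown, and 20 of 495 rose and 3 fell in DHX34 knockdown, both under the background there.

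The members with the most junctions did not all pass the test. VPS52-218 had 1.15, 1.28 and 0.659 normalised CPM in SCR, 1.53, 1.31 and 1.82 in DHX34 knockdown and 2.67, 2.05 and 2.18 in UPF1 knockdown. Its UPF1 knockdown libraries lay above all others, with a difference from SCR of 1.16 ± 0.30 (edgeR adjusted p = 0.0663). VPS52-218 was a weak member, and the TPM limit counted the knockdown libraries in which it was higher. This separation is therefore not independent of the rule. ZBED6-201 differed by 0.54 ± 0.17 (edgeR adjusted p = 0.113) in UPF1 knockdown and by 0.52 ± 0.20 (edgeR adjusted p = 0.274) in DHX34 knockdown.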

How the data were processed

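Poly(A)-selected RNA of 9 K562 libraries was measured, 3 each from SCR, DHX34 knockdown and UPF1 knockdown, and the study describes the libraries of a group as biological replicates. The authors quantified reads with salmon on cDNA of an Ensembl GRCh38 annotation and deposited, per transcript, TPM values and estimated counts, beside transcript lengths. Tables of their own comparisons, with p-values and q-values from sleuth and percent-spliced-in changes from SUPPA2, were not used.

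Stop codons and exon junctions came from GENCODE 44 (97.9% of transcripts matched by identifier, 85.8% of these with the same length). Counts were rounded and tested with edgeR 4.0.16 in R 4.3.3 (quasi-likelihood, TMM, filterByExpr with a minimum count of 10), each comparison on its 6 libraries over all transcripts, with Benjamini-Hochberg adjustment and a threshold of 0.005 as in the study. Isoform ratios used limma 3.58.1 on log2 TPM ratios with a pseudocount of 0.1 TPM, for genes of at least 1 TPM, and DESeq2 1.42.0 and limma on log2 (TPM + 0.5) were alternatives. The fits were tested on simulated data, where most changed transcripts were not called at 0.005, so a member that was not called is not shown to be unchanged. Standard errors are of the fitted log2 fold change. The members and gene lists were chosen with earlier results of these data known. The members named were, among those that passed, reached 1 TPM on average and did not overlap between groups, the 10 largest rises and 5 largest falls in UPF1 knockdown and 5 of each in DHX34 knockdown, the 5 with the smallest p in DHX34 knockdown, the 5 most abundant, the 3 with the most junctions and up to 4 of each list. The limit of 0.05 for naming and for counts was added after seeing the data. NSUN4-207, CLDN15-208, ENST00000370651, TXNRD2-218, RABEPK-206, PPP4C-214, MDM4-205, HBG1-202 and HBG2-203 fall outside that rule and were chosen after their values were seen. Replicates of a group differed by more than sampling noise. Same-numbered libraries of different groups did not deviate together (correlations of -0.05 to 0.04), so the numbers were not used as pairs.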

Additional observations from a re-analysis of the deposited data

How the results depend on the processing

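No called value changed direction in the alternatives that were run, and the uncalled median in DHX34 knockdown changed sign by limma. At 0.005 the members higher and lower in UPF1 knockdown (1 and 1) were 20 and 6 by DESeq2, 5 and 3 with all 9 libraries in the fit, 6 and 0 by limma on log2 TPM, and 0 and 0 among members of the same length in both annotations; lower members were 0 with RLE size factors, 0 with no filter on counts and 2 with the TPM limit set on SCR. At 0.05 the counts of 16 and 5 became 32 and 9 by DESeq2, 27 and 1 by limma, and 10 and 1 for the same length. In DHX34 knockdown 0 and 0 became 5 and 4 by DESeq2, 1 and 1 with all 9 libraries, 0 and 1 by limma, and 1 and 2 at 0.05, where DESeq2 gave 7 and 9, all 9 libraries 3 and 4, and the same length 0 and 0. UPF1 against DHX34 knockdown gave 15 and 2 by DESeq2, 2 higher with all 9 libraries, 2 by limma, and 10 and 1 at 0.05, against 1 and 0.

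The median of members in UPF1 knockdown (0.35) was 0.39 by limma, 0.30 with no filter, 0.27 and 0.41 with a distance limit of 50 and 100 bases, 0.24 with the TPM limit on SCR and 0.24 with a limit of 1 TPM. Its difference from the comparison median (0.42) was 0.23 by limma, 0.37 with no filter, 0.34 and 0.48 with 50 and 100 bases, 0.31 with SCR TPM, 0.32 with 1 TPM and 0.39 after removing the median of each decile of transcript length. The median in DHX34 knockdown (-0.02) was 0.12 by limma, where all transcripts also shifted up. The share of protein_coding TPM (0.0901, 0.0892 and 0.114% in SCR, DHX34 and UPF1 knockdown) was 0.0593, 0.0579 and 0.0711% with 100 bases and 0.0574, 0.0576 and 0.0762% for the same length; in DHX34 and UPF1 knockdown it was 0.0910 and 0.116% with 50 bases, 0.0885 and 0.112% with SCR TPM, and 0.0874 and 0.111% with 1 TPM. Isoform ratios higher in UPF1 knockdown (0) were 1 for genes of 5 TPM or more, 2 with a pseudocount of 0.5 TPM, and 6 at 0.05. Member genes higher and lower in DHX34 knockdown (2 and 4) were 6 and 13 by DESeq2 and 10 and 19 at 0.05. The causes were not tested.

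With each replicate left out in turn, UPF1 calls at 0.005 were 0 to 0 in both directions, and at 0.05 they were 9 to 15 and 2 to 4; the median was 0.31 to 0.39 and its difference 0.40 to 0.45. In DHX34 knockdown calls at 0.005 were 0 to 0, at 0.05 they were 0 to 2 in each direction, the median was -0.06 to 0.02 and its difference -0.05 to 0.04. UPF1 against DHX34 knockdown gave 0 to 1 higher and 0 to 0 lower. Shares were 0.0894 to 0.0912%, 0.0889 to 0.0894% and 0.113 to 0.114%, isoform ratio calls 0 to 0, UPF1 member genes 22 to 29 higher and 7 to 14 lower, and DHX34 member genes 2 to 2 and 2 to 5. Over transcripts, UPF1 calls at 0.005 fell from 604 higher and 1010 lower to 26 to 179 and 6 to 328.

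With the replicate number as a block, UPF1 calls were 0 and 0 at 0.005 and 9 and 2 at 0.05, DHX34 calls 0 and 0 at 0.05, and UPF1 against DHX34 knockdown calls 0 higher at 0.005. No transcript at all passed 0.005 with the block, and the numbers do not mark a shared source. Each UPF1 knockdown library correlated best with the SCR library of its own number (0.01 to 0.04), a hint from the data and not from the design; for DHX34 knockdown this did not hold.

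Depth limits the weak members: 15 had a library at 0, and 4 in UPF1 and 5 in DHX34 knockdown did not reach the count filter.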
